A study of Mus musculus with 20 samples.

Results

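The enzymes of oxidative phosphorylation are built from the products of 2 genomes, and the genes of both were read here in mouse ovarian tumours under 6 treatments. Members were chosen by symbol alone. The nuclear set took the Nduf genes of the A, B, C, S and V series, Sdha to Sdhd, all Uqcr genes, the Cox4 to Cox8 genes and all Atp5 genes. The mitochondrial set took the mt-Nd, mt-Cytb, mt-Co and mt-Atp genes. This gave 84 nuclear and 13 mitochondrial genes, or 97 of the 55406 genes of the count table. Of these, 80 nuclear and 8 mitochondrial genes had enough counts for a test.

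The tumours came from 20 female C57/BL6 mice that had received luciferase-expressing ID8 cells, a cancer line derived from the ovarian surface epithelium of the mouse, into the peritoneal cavity. In every group, controls included, the injected cells were ID8 Trp53-/-Brca1-/-, that is, they lacked the tumour suppressor Trp53 and the DNA repair gene Brca1. The 6 groups were untreated control (n = 3), olaparib, a PARP inhibitor, at 40 mg/kg per day by mouth (PARPi, n = 3), immune checkpoint blockade with 100 µg anti-CTLA-4 and 200 µg anti-PD-L1 (ICB, n = 3), both of these treatments combined (PARPi+ICB, n = 3), 20 µg of anti-VEGFA given on top of olaparib (PARPi+anti-VEGFA, n = 4) and all agents together (full combination, n = 4). Antibodies were given 2 times a week into the peritoneal cavity. Each title names a mouse, so a library was read as 1 animal. All tumours share 1 engineered cell background, and the RNA was that of bulk tissue, in which fewer cells of a type and less RNA per cell cannot be told apart.

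Complexes I to IV of the inner mitochondrial membrane pass electrons from NADH and succinate to oxygen, and complexes I, III and IV pump protons. Complex V, the ATP synthase, uses the proton gradient to make ATP. Mitochondrial DNA encodes core subunits of complexes I, III, IV and V, and it is transcribed into long precursors that are cut into the single messenger RNAs. All other subunits, including the whole of complex II, are encoded in the nucleus, translated in the cytosol and imported. The nuclear members were assigned to complexes by symbol alone. This put 36 in complex I (NADH dehydrogenase), 4 in complex II (succinate dehydrogenase), 8 in complex III (cytochrome bc1), 18 in complex IV (cytochrome c oxidase) and 18 in complex V.

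Library totals ran from 26.9 to 34.7 M counts. Levels are in CPM, counts scaled to library size with TMM factors. The epithelial and mesothelial markers of the injected line and its peritoneal site (12 genes, with Msln and Krt18 among them) summed to 2727 to 3109 CPM in controls and 2089 to 2624 CPM in the 17 treated libraries, all of which lay below the controls, and none of the 12 was at 0 throughout. Markers of other cell types moved with treatment too. The plasma cell list (11 genes) summed to 5762 to 8180 CPM in controls and to 13898 to 53279 CPM in the treated libraries. T cell markers (10 genes) summed to 51.0 to 64.3 CPM in controls. In the 3 groups that combined PARPi with an antibody they summed to 95.5 to 206 CPM. With PARPi alone they were at 75.7 to 96.6 CPM and with ICB alone at 77.8 to 96.1 CPM. Macrophage markers (11 genes) were at 1147 to 1292 CPM in controls and 1596 to 2420 CPM in the 3 combined groups. With PARPi alone they were at 1408 to 1411 CPM and with ICB alone at 1424 to 1644 CPM. Pericyte markers (9 genes) went the other way, at 436 to 539 CPM in controls and 251 to 402 CPM in the 3 combined groups. With PARPi alone they were at 393 to 395 CPM and with ICB alone, overlapping the controls, at 412 to 467 CPM. Rn7sk, Lars2 and Mir6236, 3 RNAs taken to reflect library quality, summed to 150 to 154 CPM in controls. The PARPi libraries held 67.1 to 127 CPM of them, the ICB libraries 60.6 to 79.7, the PARPi+ICB libraries 61.6 to 82.0, the PARPi+anti-VEGFA libraries 46.5 to 62.3 and those of the full combination 55.5 to 153. Pancreatic acinar RNA was high in 4 libraries, 1 with ICB, 2 with PARPi+anti-VEGFA and 1 of the full combination. The part of these differences in the results below was not tested, except by the fits named beside them.

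Mitochondrial messengers took a far larger share of the libraries than nuclear ones. The 13 mitochondrial genes held 3.71 to 4.98% of the counts of a library, and the 84 nuclear genes together held 0.558 to 0.657%. Per kb of transcript, mt-Cytb (mean 8602 CPM per kb over the 20 libraries) and mt-Co1 (8017 CPM per kb) led all members, followed by mt-Nd1 (6356), mt-Nd2 (3640), mt-Nd5 (2877) and mt-Nd4 (2624). The most abundant nuclear members on the same scale were Uqcrb, a small subunit of complex III (332 CPM per kb), Cox4i1, the common form of a large nuclear subunit of complex IV (303), Cox6c (290) and Atp5b, the catalytic beta subunit of the ATP synthase (221). mt-Co1 thus stood 36.2 times above Atp5b per kb of transcript, and 30.1 times above it per kb of coding sequence. The same ratio in the authors' deposited RPKM values was 135. Those values divide by a length that follows the genomic span of a gene, introns included, to within 1% in 99.7% of the genes checked. This places the genes with introns lower, so levels between genes are compared here per kb of transcript only. Such levels hold only the counts assigned to a gene. Of the 50-base windows of the transcript, 51.1% for mt-Co1, 62.2% for mt-Nd4 and 43.4% for Uqcrb are also found in another gene. The share is 14.7% for Cox4i1, 13.9% for Cox6c, 0.857% for Atp5b and 0% for mt-Cytb and mt-Nd1. Its part in the order and the ratios was not tested.

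**Figure D1:**
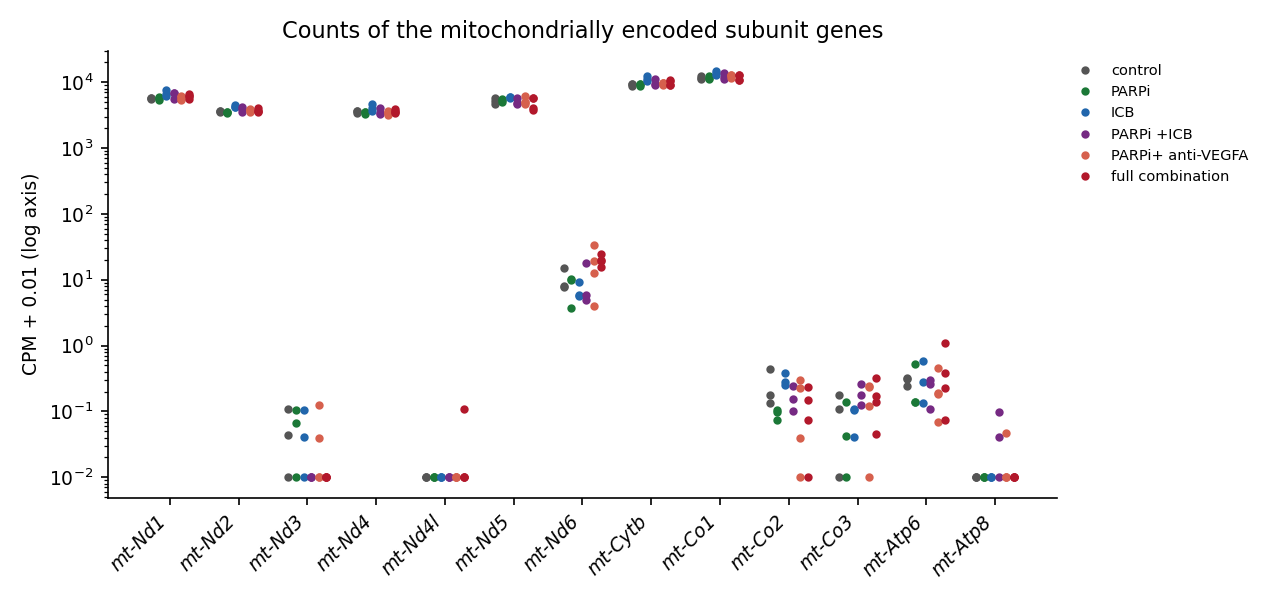
Level of each of the 13 mitochondrially encoded subunit genes in the 20 libraries, in CPM with 0.01 added on a log axis, with 1 point per library and colours for the 6 groups. The 6 abundant genes lie between 3205 and 14777 CPM in all libraries, mt-Nd6 between 3.74 and 34.0, and 6 further genes at or under 1.07.

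The order among mitochondrial genes had a gap of several orders of magnitude. mt-Co2 and mt-Co3, which encode the other 2 mitochondrial subunits of cytochrome oxidase, had 0 to 13 and 0 to 9 counts in a library in which mt-Co1 had 305917 to 470050. mt-Atp6, the proton channel subunit of the ATP synthase, had 2 to 33 counts, and mt-Nd3, mt-Nd4l and mt-Atp8 had at most 3 each. A count of 0 allows up to 3 counts, or 0.0864 to 0.113 CPM in libraries of these sizes, counting error only. These 6 genes come from the same precursor RNA as the abundant ones. Their counts therefore describe what was assigned to them in the table, and no level of the RNA is read from them.

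What 5 of those 6 genes share is an annotated, near-identical copy in the nuclear genome. On chromosome 1 of GRCm38, on the minus strand between 24611535 and 24616197, the GENCODE M21 annotation holds a block of pseudogenes in the order of the mitochondrial genes. Gm28661 matches 681 of 684 bases of mt-Co2 with 0 mismatches, Gm10925 matches 678 of 681 bases of mt-Atp6, Gm28437 matches 783 of 784 of mt-Co3 and Gm10222 matches 294 of 297 of mt-Nd4l, all with 0 mismatches. Gm28438 differs from mt-Nd3 at 1 base of the 345 aligned, T3C, counted from 1 at the 5′ end of the mitochondrial transcript. The first 60 bases of 2 such pairs, from the GENCODE M21 transcripts, show how little separates gene and copy. The capital marks the 1 difference.
mt-Nd3: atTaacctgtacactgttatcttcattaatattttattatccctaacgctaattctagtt
Gm28438: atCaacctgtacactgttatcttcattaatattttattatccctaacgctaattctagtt
mt-Co2: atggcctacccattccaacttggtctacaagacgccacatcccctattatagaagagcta
Gm28661: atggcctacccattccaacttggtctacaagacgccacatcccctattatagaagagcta
The copies did not hold the counts either. Gm28661 had 15 to 201 counts in a library, Gm10925 11 to 1034, Gm28437 8 to 176, Gm28438 28 to 56 and Gm10222 0 to 6. For mt-Atp8 no such copy was found among the annotated transcripts. In the mitochondrial genome mt-Atp8 lies between mt-Co2 and mt-Atp6, and the stretch of chromosome 1 between their copies was not searched. Copies also cover part of some abundant genes. Of the 50-base windows of mt-Nd2 and mt-Nd5, 8.19% and 7.61% are also found in another gene, with Gm13339 and Gm4076 first. Larger parts of mt-Nd4 and mt-Co1 are covered. Gm28439 is identical to the first 876 of 1378 bases of mt-Nd4, and Gm29216 covers bases 1063 to 1545 of mt-Co1 with 1 difference, A1066T. How reads with more than 1 best position were counted is not given in the sources used here, and its part in these counts was not tested.

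The summed share of the mitochondrial genes was higher with ICB alone. In controls the 13 genes took 3.81, 4.15 and 4.01% of the counts, and with ICB 4.98, 4.55 and 4.31%. All 3 ICB libraries lay above all 3 controls. PARPi libraries held 3.77 to 4.03%, PARPi+ICB libraries 3.72 to 4.57%, PARPi+anti-VEGFA libraries 3.82 to 4.18% and full combination libraries 3.71 to 4.26%, and each of these ranges overlapped the controls. The nuclear share was 0.622 ± 0.0293% (SD, n = 3) in controls and 0.595 to 0.610% on average in the treated groups, and it overlapped the controls in every group. The ratio of mitochondrial to nuclear counts was 6.43 ± 0.569 (SD, n = 3) in controls and 7.60 ± 0.416 (SD, n = 3) with ICB, where the lowest library (7.14) lay above the highest control (7.06). Per kb of transcript the same ratio was 4.91 ± 0.452 and 5.75 ± 0.316 (SD, n = 3), and there the lowest ICB library (5.39) fell below the highest control (5.42).

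**Figure D2:**
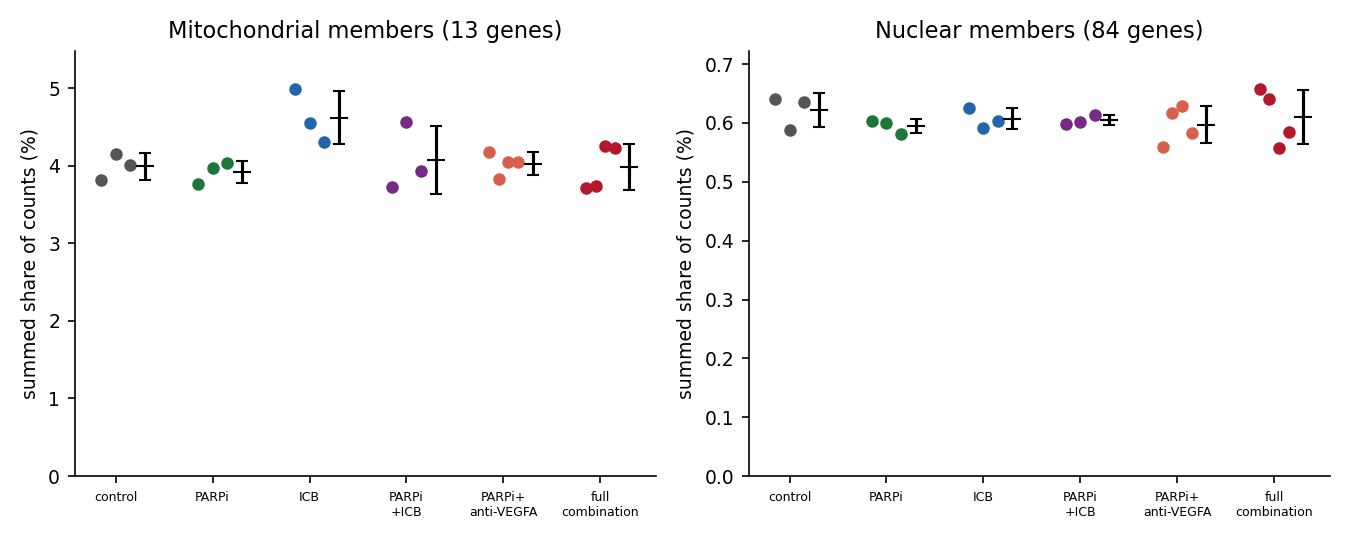
Share of the counts of each library held by the 13 mitochondrial genes (left) and the 84 nuclear genes (right), in percent, with 1 point per library and the mean and SD of each group in black. The 3 ICB libraries are at 4.31 to 4.98% on the left and the controls at 3.81 to 4.15%, while on the right the groups overlap.

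Gene by gene the ICB difference was small. mt-Nd2, a membrane-arm subunit of complex I, was at 3514, 3661 and 3603 CPM in controls and 4576, 4167 and 4137 CPM with ICB. Every ICB library was above every control, with a log2 fold change of 0.26 ± 0.08 (SE) and an adjusted p of 0.0964 (edgeR quasi-likelihood test, Benjamini-Hochberg over all genes), so the change was not called at 0.05. mt-Cytb, the core of complex III, was at 8888, 9436 and 9542 CPM in controls and 12241, 11032 and 10299 CPM with ICB (log2 0.27 ± 0.10, adjusted p = 0.165). mt-Nd1 (0.27 ± 0.10, adjusted p = 0.149), mt-Nd4 (0.22 ± 0.09, adjusted p = 0.240) and mt-Co1 (0.22 ± 0.11, adjusted p = 0.289) also had all ICB libraries above the controls. mt-Nd5 did not (0.18 ± 0.15, adjusted p = 0.599). Of the 6 abundant genes, 5 did not overlap with ICB, where 11.7% of all tested genes lay fully above the controls. ICB replicate 1 was the highest library of all 20 for mt-Nd1, mt-Nd2, mt-Nd4, mt-Cytb and mt-Co1.

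edgeR called 0 of the 8 tested mitochondrial genes in any of the 9 contrasts. With ICB, where it called 2.20% of all 18144 tested genes, 4 of the 8 were higher at an unadjusted p under 0.05 (9.42% of all genes), and the Wald test of DESeq2 called 3 (mt-Nd2, mt-Nd1 and mt-Cytb, adjusted p = 0.00898, 0.0288 and 0.0255). The 6 abundant genes had a median log2 fold change of 0.24 with ICB, against 0.00 over all tested genes. Against control it was -0.01 with PARPi, 0.08 with PARPi+ICB, 0.04 with PARPi+anti-VEGFA and 0.04 in the full combination. When ICB was added to PARPi the 8 tested genes had a median of 0.09, with 0 called. The test of whether the ICB difference was smaller on top of PARPi gave log2 values of -0.22 to -0.10 for the 6 genes with adjusted p of 0.976 or more, so a difference between the 2 settings was not shown. With the quality RNAs as a covariate the ICB fold changes of the 6 genes were 0.37 to 0.57, with adjusted p of 0.336 to 0.421. That fit called 0 of all 18144 genes with ICB.

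The 6 genes varied together from library to library. Over the 20 libraries their 15 pairwise Pearson correlations of log2 CPM had a median of 0.83 and ranged from 0.38 to 0.94, while the 3160 pairs among the 80 tested nuclear members had a median of 0.28. The libraries share groups, depth and scaling in these values. In the full combination mt-Nd5 was at 4011 and 3780 CPM in replicates 1 and 2 and at 5813 and 5811 in replicates 3 and 4. The same replicates split mt-Co1 (10900 and 10911 against 13092 and 12668 CPM), and likewise mt-Cytb, mt-Nd2 and mt-Nd4. For mt-Nd1 they did not (6242 and 5569 against 6645 and 6176 CPM). mt-Nd6, the complex I subunit encoded on the opposite strand of the mitochondrial genome, was at 8.15, 15.1 and 7.84 CPM in controls. In the full combination it was at 19.5, 20.1, 15.7 and 24.3 CPM, with all 4 libraries above the controls, and with PARPi+anti-VEGFA at 3.92, 19.4, 12.7 and 34.0 CPM, on both sides of them. The log2 fold changes were 0.94 ± 0.55 and 0.76 ± 0.55 (SE) with adjusted p of 0.230 and 0.365, and neither was called. The share of all tested genes that lay fully above the controls in the full combination was not counted.

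Among nuclear members single subunits moved in opposite directions, with more higher than lower calls in ICB, PARPi+ICB and the full combination and about as many of each with PARPi+anti-VEGFA. Of the 80 tested, PARPi alone gave 0 calls in edgeR, with 4 higher and 4 lower at an unadjusted p under 0.05 and 0.0661% of all genes called. At that unadjusted level 6.92% of all genes were higher and 4.46% lower, and the members' 4 of 80 in each direction lay near these shares. ICB gave 2 higher and 0 lower, against 2.20% of all genes. PARPi+ICB gave 7 higher and 2 lower, where 16.1% of all genes were called, 9.58% higher and 6.52% lower. PARPi+anti-VEGFA gave 6 higher and 7 lower, against 17.8% of all genes, 9.99% higher and 7.80% lower. The full combination gave 9 higher and 4 lower, against 24.2% of all genes, 12.6% higher and 11.5% lower. Of the 80 members these calls are 9, 13 and 13, a share below that of all genes in each of the 3 contrasts. Cox6a2, 1 of the higher calls in each of the 4 groups with calls, had fewer counts than the minimum in every control and passed the filter only through treated libraries. Without it the higher calls were 1 with ICB, 6 with PARPi+ICB, 5 with PARPi+anti-VEGFA and 8 in the full combination. The median log2 fold change of the 80 lay between -0.05 (PARPi) and 0.01 (full combination), beside -0.02 to 0.00 over all tested genes. Adding ICB or anti-VEGFA to a treatment gave 0 calls among the members in each of 4 contrasts, where edgeR called 1.26% of all genes for ICB on PARPi, 0.573% for anti-VEGFA on PARPi, 0.0882% for ICB on PARPi+anti-VEGFA and 0% for anti-VEGFA on PARPi+ICB. At an unadjusted p under 0.05 members were higher 4, 4, 3 and 0 times and lower 1, 0, 0 and 0 times in those contrasts, in that order, where 9.03%, 7.94%, 6.17% and 2.03% of all genes were higher and 7.30%, 7.53%, 6.29% and 2.07% lower. The 5 contrasts with control share the same 3 control libraries. Single libraries moved the counts. Without PARPi+ICB replicate 3 that group had 4 calls. PARPi+anti-VEGFA had 8 without its replicate 4 or without control replicate 2, and 6 without control replicate 3. The full combination had 8 without its replicate 2 and 7 without control replicate 2, and ICB had 0 or 1 without any 1 of its 6 libraries. With the quality RNAs as a covariate the counts were 2 with PARPi+ICB, 0 with PARPi+anti-VEGFA and ICB, and 8 in the full combination. Over all 18144 genes that fit called 0 with PARPi+anti-VEGFA and 0 with ICB, so no member call could remain there. It called 492 genes higher and 138 lower with PARPi+ICB, and 1494 higher and 977 lower in the full combination.

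**Figure D3:**
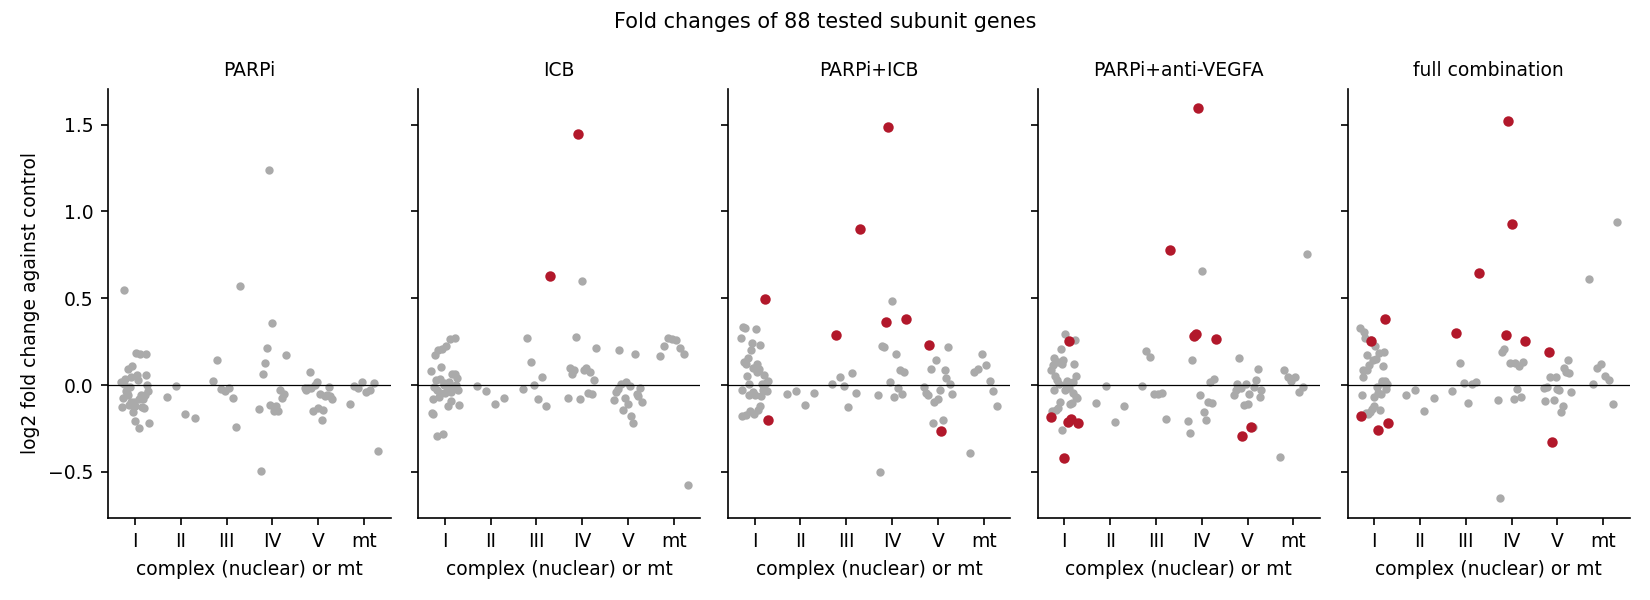
Log2 fold change against control of the 88 tested genes in each of the 5 treated groups, with 1 point per gene, nuclear members by complex (I to V) and mitochondrial genes together (mt). Red points passed an adjusted p of 0.05 in edgeR, and no mitochondrial point did.

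By complex, the calls of complexes III and IV were in 1 direction and those of complex I were not. In the full combination complex I had 2 higher and 3 lower of 36, complex II 0 of 4, complex III 2 higher of 8, complex IV 4 higher of 15 tested and complex V 1 higher and 1 lower of 17 tested. With PARPi+anti-VEGFA complex I had 1 higher and 5 lower, complex III 1 higher, complex IV 4 higher and complex V 2 lower. With PARPi+ICB complex I had 1 of each, complex III 2 higher, complex IV 3 higher and complex V 1 of each. Without Cox6a2 the complex IV calls were 3, 3 and 2 of 14, in the same order, all higher. Over all genes 11.5%, 7.80% and 6.52% were lower in these contrasts, in the same order. Calls of complex I in either direction were 13.9%, 16.7% and 5.56% of its 36, beside 24.2%, 17.8% and 16.1% of all genes. The counts per complex are small, and no test compared the complexes. All 4 subunits of complex II, which also serves the citric acid cycle, had log2 fold changes below 0 in each of the 5 contrasts, the lowest at -0.21 (Sdhc with PARPi+anti-VEGFA), and none was called. Their summed share was 0.0494 to 0.0510% in controls and 0.0439 to 0.05001% in the treated groups, where only the full combination overlapped the controls. Both are descriptions, since the share of all tested genes that did the same was not counted.

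Uqcrq, a small subunit of complex III (chromosome 11, 53427922 to 53430831, minus strand), was the member with the smallest p in 4 of the 5 treated groups. Controls were at 19.8, 16.0 and 20.4 CPM. The other libraries were at 24.8, 30.0 and 28.7 with PARPi, 33.2, 27.2 and 26.4 with ICB, 32.6, 33.8 and 38.3 with PARPi+ICB, 32.0, 33.6, 35.2 and 27.8 with PARPi+anti-VEGFA and 33.5, 30.0, 23.7 and 30.0 in the full combination. No treated library reached down to the controls. The share of all tested genes that lay apart from the controls in this way was not counted, here or for the members below. The log2 fold change was 0.90 ± 0.13 (SE) with PARPi+ICB (adjusted p = 0.000355, edgeR), 0.78 ± 0.12 with PARPi+anti-VEGFA (0.000802), 0.65 ± 0.12 in the full combination (0.00145) and 0.63 ± 0.13 with ICB (0.0208). With PARPi alone it was 0.57 ± 0.13 and was not called (adjusted p = 0.0881). These calls held without any 1 library except that with ICB, which was lost without ICB replicate 1 (0.52, adjusted p = 0.0822) or control replicate 2 (0.53, adjusted p = 0.0931). With the quality RNAs as a covariate the call held with PARPi+ICB (adjusted p = 0.0282) and in the full combination (0.0156), and it was lost with PARPi+anti-VEGFA (0.204) and ICB (0.388). For PARPi+anti-VEGFA and ICB that fit called 0 of all genes, so these losses are not particular to Uqcrq. Of the quality list, Lars2 was at 69.4 to 72.8 CPM in controls and at 27.2 to 53.5 CPM in all treated libraries.

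Uqcr11, another small subunit of complex III, rose from 30.2 ± 1.95 CPM in controls to 36.9 ± 0.77 with PARPi+ICB (SD, n = 3; log2 0.29 ± 0.09, adjusted p = 0.0380) and 37.2 ± 3.17 in the full combination (SD, n = 4; 0.30 ± 0.09, adjusted p = 0.0175, edgeR). The core proteins Uqcrc1 and Uqcrc2 and the Rieske iron-sulphur protein Uqcrfs1, which carry out the electron transfer or hold it together, were not called in any contrast. They stood at 82.9 to 99.1, 153 to 175 and 38.0 to 50.9 CPM in all libraries. The Uqcr11 calls rested on several libraries. The full combination lost its call without replicate 2 (adjusted p = 0.05005) or control replicate 2 (0.0865), and PARPi+ICB lost it without any of 5 of its 6 libraries (up to 0.141).

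**Figure D4:**
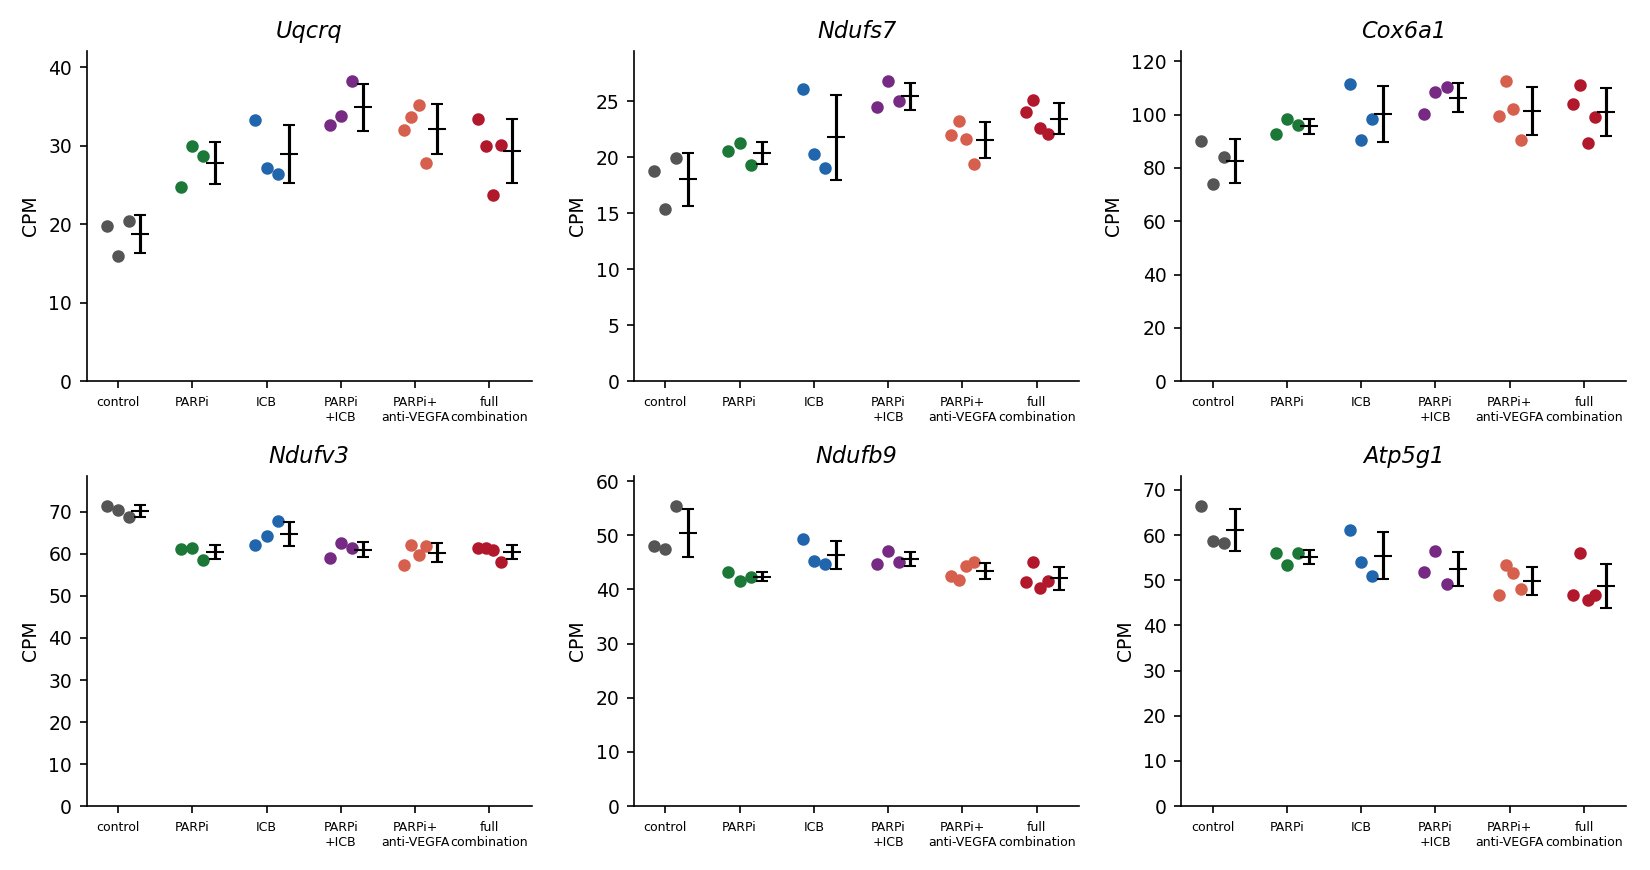
Level in CPM of 6 nuclear members in the 20 libraries, with 1 point per library and the mean and SD of each group in black (n = 3 or 4). Uqcrq lies at 16.0 to 20.4 CPM in controls and at 23.7 to 38.3 in all treated libraries, while Ndufv3 lies at 68.8 to 71.5 in controls and at 57.4 to 67.9 in treated libraries.

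Complex IV subunits that were called were all higher. Cox6a1 and Cox8a, the widely expressed forms of 2 small subunits, were called in the same 3 groups. Cox6a1 was at 89.9, 73.9 and 83.9 CPM in controls, and at 100.0, 109 and 110.5 CPM with PARPi+ICB (log2 0.37 ± 0.09, adjusted p = 0.0132, edgeR). It was at 99.5, 113, 102 and 90.6 CPM with PARPi+anti-VEGFA (0.29 ± 0.09, 0.0286) and at 104, 111, 89.3 and 99.2 in the full combination (0.29 ± 0.09, 0.0243), where 1 library overlapped the controls. Cox8a was at 79.5, 71.1 and 78.8 CPM in controls and 91.2, 98.2 and 109 CPM with PARPi+ICB, above all controls (0.38 ± 0.10, 0.0115). Its fold changes with PARPi+anti-VEGFA (0.26 ± 0.09, 0.0499) and in the full combination (0.26 ± 0.09, 0.0463) were at the threshold. Control replicate 2 was the lowest control for both genes, and without it none of these 6 calls remained (adjusted p = 0.0559 to 0.183). Cox5b, which binds zinc in the enzyme, was called with PARPi+anti-VEGFA only, at 56.7 ± 3.53 CPM (SD, n = 4) against 46.6 ± 4.01 (SD, n = 3) in controls (0.28 ± 0.08, 0.0209), and without control replicate 2 that call was lost (0.112).

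Several subunits of complex IV have a second form that is used in particular tissues. Cox6a2, the heart and skeletal muscle form of Cox6a1, had 5 to 7 counts in each control, under the count minimum of 10, and entered the test only through the treated groups, so its calls are no support for a change. It was at 0.220, 0.235 and 0.165 CPM in controls and at 0.356 to 0.927 CPM in all treated libraries, and its values are given as a description. This is 26 counts at most in a library. The gene lies on the strand opposite to Itgad, an integrin gene of macrophages, itself at 0 to 0.820 CPM, and without a stated strand setting their reads cannot be told apart. Skeletal muscle markers (12 genes) were summed at 23.1 to 34.2 CPM in controls, 21.2 to 105 CPM with PARPi, and 13.2 to 20.5 CPM in the other treated groups. Cox6b2, a form known from testis, was at 1.04, 0.974 and 0.926 CPM in controls and 1.62, 2.68, 1.65 and 1.52 in the full combination (log2 0.93 ± 0.26, adjusted p = 0.0150). The 7 male germ line markers summed to at most 0.660 CPM in any library. Without replicate 2 of the full combination the Cox6b2 call was lost (0.70, adjusted p = 0.0524), and likewise without control replicate 3 (0.90, 0.0519). Cox4i2, the form linked to low oxygen, was at 0.586 to 1.61 CPM in all libraries and was not called (-0.65 ± 0.29, adjusted p = 0.117 in the full combination). Cox7a1, the muscle form, was at 2.27 to 4.42 CPM with no call. Cox7b2 had no count in any library, Cox8c at most 1 and Cox8b at most 2. The common forms Cox4i1 (186 to 283 CPM), Cox6b1 (102 to 170), Cox7a2 (47.4 to 75.5) and Cox7b (55.1 to 72.8) were not called. Nor was Cox7a2l (157 to 186 CPM), taken into complex IV by its symbol.

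Complex I, the largest with 36 of the 80 tested nuclear members, held most of the lower calls. Ndufv3, a small subunit of the NADH-binding arm, was at 71.5, 70.5 and 68.8 CPM in controls. It was at 61.3, 61.4 and 58.7 with PARPi, 62.2, 64.2 and 67.9 with ICB, 59.0, 62.6 and 61.5 with PARPi+ICB, 57.4, 62.2, 59.7 and 62.0 with PARPi+anti-VEGFA and 61.4, 61.3, 61.0 and 58.1 in the full combination. All 17 treated libraries were below all 3 controls, a description, since the share of all genes that did so was not counted. The log2 fold change was -0.22 ± 0.04 (SE) with PARPi+anti-VEGFA (adjusted p = 0.00320, edgeR), -0.22 ± 0.04 in the full combination (0.00235) and -0.20 ± 0.05 with PARPi+ICB (0.00785), and these 3 calls held without any 1 library. With PARPi (-0.22 ± 0.05, 0.0840) and with ICB (-0.12 ± 0.05, 0.209) it was not called. With the quality RNAs as a covariate the call held in the full combination (0.0187) and was lost with PARPi+ICB (0.130) and PARPi+anti-VEGFA (0.266), while the fold changes stayed at -0.20 to -0.22. For PARPi+anti-VEGFA that fit called 0 of all genes, so this loss is not particular to Ndufv3.

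Ndufb9, a membrane-arm subunit, was at 48.1, 47.5 and 55.5 CPM in controls, 42.5, 41.7, 44.3 and 45.04 with PARPi+anti-VEGFA (log2 -0.21 ± 0.06, adjusted p = 0.0190) and 41.3, 45.1, 40.3 and 41.5 in the full combination (-0.26 ± 0.06, 0.00476), below all controls in both. Without control replicate 3, its highest control, the adjusted p was 0.151 and 0.0550. Ndufa10 fell in the same 2 groups (-0.19 ± 0.06, 0.0274, and -0.18 ± 0.06, 0.0253). Ndufb4 was lower with PARPi+anti-VEGFA only (-0.42 ± 0.12, 0.0240). Each of these 3 further calls was lost without 1 of several libraries, with an adjusted p of up to 0.183. Ndufb4 was at 4.50 to 7.35 CPM, and 37.0% of the 50-base windows of its transcript are also found in another gene, with Ndufb4c first.

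Other complex I subunits rose. Ndufs7, which carries the last iron-sulphur cluster before the quinone, was at 18.8, 15.3 and 20.0 CPM in controls and 24.5, 26.8 and 25.0 with PARPi+ICB (log2 0.50 ± 0.11, adjusted p = 0.00632, edgeR). In the full combination it was at 24.0, 25.1, 22.6 and 22.1 CPM (0.38 ± 0.11, 0.0152), again above all controls. The call of PARPi+ICB held without any 1 library, and that of the full combination was lost without control replicate 2 (0.28, 0.0968). Ndufb10 was higher in the full combination (0.26 ± 0.07, 0.0186), a call lost without its replicate 2 (0.0503) or control replicate 2 (0.125). Ndufc2 was higher with PARPi+anti-VEGFA (0.25 ± 0.08, 0.0362), a call lost without any of 4 libraries (up to 0.161).

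In complex V the calls went both ways. Atp5g1, 1 of 3 genes for the c subunit of the proton-driven ring, was at 66.5, 58.6 and 58.3 CPM in controls, 46.6, 53.4, 51.6 and 48.0 with PARPi+anti-VEGFA (log2 -0.29 ± 0.08, adjusted p = 0.0184, edgeR) and 46.8, 56.1, 45.7 and 46.7 in the full combination (-0.33 ± 0.08, 0.00781). Both groups lay below the controls. Without control replicate 1 the adjusted p was 0.115 and 0.0669. The other c subunit genes, Atp5g2 (37.1 to 49.3 CPM) and Atp5g3 (111 to 145 CPM), were not called. Of the 50-base windows of the Atp5g2 transcript, 87.4% are also found in another gene, with Gm10175 first. The share is 11.6% for Atp5g1 and 0% for Atp5g3, and its part in these levels was not tested. Atp5j2, the f subunit of the membrane part, was lower with PARPi+ICB (-0.27 ± 0.08, 0.0392) and PARPi+anti-VEGFA (-0.24 ± 0.08, 0.0429). Atp5d, the delta subunit of the central stalk, was higher with PARPi+ICB (0.23 ± 0.07, 0.0285) and in the full combination (0.19 ± 0.06, 0.0355). The calls of Atp5j2 and Atp5d were each lost without any of 4 or 5 libraries (adjusted p up to 0.184). The catalytic subunits Atp5a1 (354 to 400 CPM) and Atp5b (397 to 463 CPM), the most abundant of the complex by count, were not called.

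In several contrasts shorter transcripts had higher fold changes than longer ones among the members. The 40 nuclear members with transcripts up to the median length of 823.5 bases had a median log2 fold change of 0.12 in the full combination, and the 40 longer ones -0.02. With PARPi+ICB the medians were 0.08 and -0.03. Across the 80 genes the Spearman correlation of fold change with length was -0.42 in the full combination and -0.37 with PARPi+ICB, beside -0.18 and -0.13 over 18122 tested genes. It was weaker with PARPi (-0.19, with medians of -0.03 and -0.06) and for anti-VEGFA added to PARPi+ICB (-0.14, with medians of -0.0053 and -0.0054). Genes are not replicates, and the contrasts with control share the same controls.

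The level of 1 member followed single libraries more than groups. Ndufa12, a small subunit of complex I, was at 14.8 to 18.2 CPM in 12 libraries and at 26.8 to 30.5 CPM in 8, with nothing between. The 8 were control replicate 2, all 3 PARPi libraries, replicates 1 and 2 of PARPi+ICB, replicate 3 of PARPi+anti-VEGFA and replicate 4 of the full combination. Its processed pseudogene Gm15920 (chromosome 5, 130188395 to 130188796, plus strand) had the reverse pattern, at 24.5 to 30.0 CPM in the 12 libraries and 0.0288 to 0.145 CPM in the 8. Over the 20 libraries the Pearson correlation of the log2 values was -0.98, a description that rests on the 2 sets of libraries. The sum of gene and copy was 39.4 to 46.8 CPM in the 12 and 27.0 to 30.6 CPM in the 8, so it was not constant. Both were singled out after their values were seen, and the libraries were not grouped by them for any test.

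The copy covers bases 127 to 528 of the 1110 bases of the Ndufa12 transcript, with 2 mismatches in 402 bases, A225G and T504C, counted from the 5′ end of the Ndufa12 transcript. Bases 205 to 294 of Ndufa12 and the matching 90 bases of Gm15920, from the GENCODE M21 transcripts, hold the first of the 2, in capitals.
Ndufa12: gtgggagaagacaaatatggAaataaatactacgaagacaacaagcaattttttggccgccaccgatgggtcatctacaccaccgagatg
Gm15920: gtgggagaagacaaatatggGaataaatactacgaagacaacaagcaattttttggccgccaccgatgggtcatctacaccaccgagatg
The longest stretch without a difference is 278 bases. Ndufa12 itself was not called in any contrast. With PARPi its log2 fold change was 0.54 ± 0.27 (adjusted p = 0.464), and all 3 PARPi libraries were in the set of 8.

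**Figure D5:**
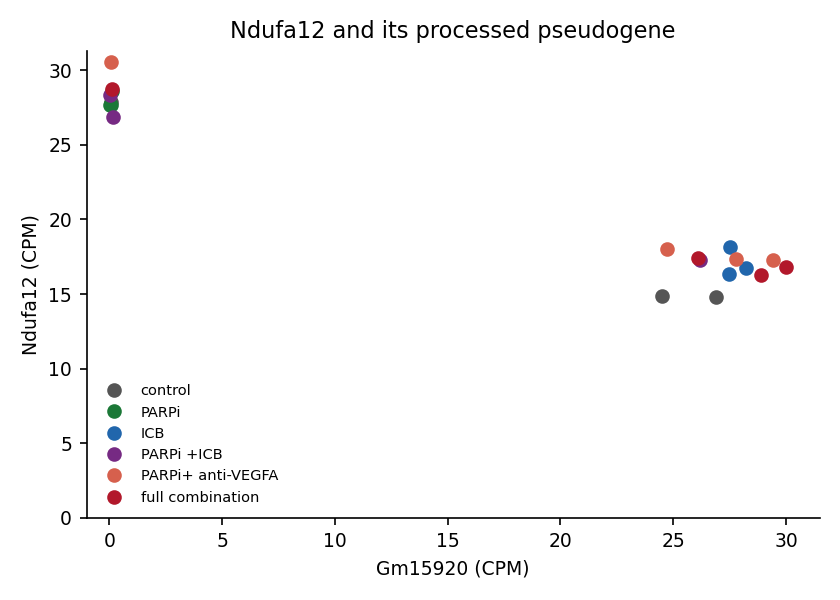
Ndufa12 against its pseudogene Gm15920 in the 20 libraries, both in CPM, with colours for the groups. A set of 8 libraries lies at 26.8 to 30.5 CPM of Ndufa12 with almost no Gm15920, and 12 lie at 14.8 to 18.2 CPM with 24.5 to 30.0 CPM of Gm15920.

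Promoters of the nuclear members were searched for 3 motifs of factors known for this gene class. RefSeq promoters (GRCm38.p6, 250 bases before to 50 after the start) matched 68 of the 84 members. The palindromic NRF-1 motif with 1 free base near its centre was in 25.0% of them, on either strand, and in 7.17% of 17492 protein-coding genes. The YY1 letters AAGATGGCG were in 10.3% and 2.14%, and the ETS letters CCGGAAGT in 7.35% and 5.69%. A match is only a match of letters, and Uqcrq had no promoter in the table. Of the 18 called members, 14 had a promoter there, of which 6 held 1 of the motifs and 8 held none. The share of all 68 members with any of the 3 was not counted, so the 6 of 14 are not read as particular to called members. Of the 6, Cox6a1, Ndufs7 and Cox8a are shown as 1 example of each motif, with the motif in capitals, for NRF-1 in Cox6a1 (chr5:115348909-115349208, minus strand), YY1 in Ndufs7 (chr10:80249199-80249498, plus strand) and ETS, 2 times on the reverse strand, in Cox8a (chr19:7217567-7217866, minus strand).
Cox6a1: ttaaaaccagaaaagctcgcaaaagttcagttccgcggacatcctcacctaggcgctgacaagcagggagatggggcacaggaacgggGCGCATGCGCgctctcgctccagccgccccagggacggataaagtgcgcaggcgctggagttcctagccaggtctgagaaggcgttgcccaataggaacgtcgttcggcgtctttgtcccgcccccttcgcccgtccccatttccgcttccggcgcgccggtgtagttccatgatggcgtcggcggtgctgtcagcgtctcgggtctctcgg
Ndufs7: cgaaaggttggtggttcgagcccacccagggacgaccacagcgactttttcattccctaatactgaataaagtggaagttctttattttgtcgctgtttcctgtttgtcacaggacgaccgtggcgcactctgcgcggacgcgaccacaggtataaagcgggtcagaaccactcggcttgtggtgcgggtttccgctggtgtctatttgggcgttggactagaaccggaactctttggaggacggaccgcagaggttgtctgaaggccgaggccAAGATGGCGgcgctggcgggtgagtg
Cox8a: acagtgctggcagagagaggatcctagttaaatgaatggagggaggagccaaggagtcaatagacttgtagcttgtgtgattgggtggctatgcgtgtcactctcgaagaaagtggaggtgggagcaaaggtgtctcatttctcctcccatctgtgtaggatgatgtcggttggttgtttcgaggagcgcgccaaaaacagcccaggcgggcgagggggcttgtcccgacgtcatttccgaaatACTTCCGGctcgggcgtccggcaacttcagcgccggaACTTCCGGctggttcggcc
Uqcr11 also held the ETS letters, Atp5j2 the YY1 letters and Ndufb4 the NRF-1 motif. The promoters of Ndufa10, Ndufb10, Ndufc2, Ndufv3, Cox5b, Cox6b2, Atp5d and Atp5g1 held none of the 3.

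Genes that build or feed the chain were read from lists. Mitochondrial ribosomal proteins, which translate the 13 mitochondrial messengers, had 9 higher and 2 lower of 77 tested in the full combination (14.3% called, against 24.2% of all genes), 7 and 3 with PARPi+ICB (13%, against 16.1%) and 5 and 2 with PARPi+anti-VEGFA (9.09%, against 17.8%). Mrps12 (log2 0.56 ± 0.10, adjusted p = 0.000782) and Mrpl57 (0.57 ± 0.12, 0.00209) led in the full combination. Genes that transcribe and process mitochondrial RNA had 1 higher and 5 lower of 25 in the full combination, and these 24.0% lay at the 24.2% of all genes. Among them the mitochondrial RNA polymerase Polrmt rose (0.41 ± 0.10, 0.00890) and Lrpprc, which stabilises mitochondrial messengers, fell (-0.19 ± 0.06, 0.0184). Assembly factors of the complexes had 0 higher and 3 lower of 42 there (7.14%, below that share), with Ndufaf7 at -0.22 ± 0.06 (0.0141).

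Citric acid cycle enzymes had 4 lower and 1 higher of 14 in the full combination (35.7%, against 24.2% of all genes). They had 4 lower with PARPi+ICB and 4 lower with PARPi+anti-VEGFA (28.6% each, against 16.1% and 17.8%). Fumarate hydratase Fh1 was lower in all 3, by -0.21 ± 0.05 in the full combination (adjusted p = 0.00899). Glycolysis and its transporters had 13 lower and 0 higher of 16 in the full combination, a share of 81.3% called against 24.2% of all genes, and 6 lower of 16 with PARPi+ICB (37.5%, against 16.1%). With PARPi+anti-VEGFA 2 were higher and 1 lower (18.8%, against 17.8%). Eno1 (enolase) was at -0.60 ± 0.12 (0.00186) and Pkm (pyruvate kinase) at -0.38 ± 0.10 (0.00852) in the full combination. Of 6 genes linked to the response of the chain to low oxygen, Ndufa4l2 and Pdk1 were lower with PARPi+ICB and in the full combination. In these contrasts 16.1% and 24.2% of all genes were called. Bnip3, a mitophagy receptor, was higher with PARPi+anti-VEGFA (0.85 on the log2 scale), where 17.8% of all genes were called. Ndufa4l2, a form of Ndufa4 induced in low oxygen, was at 32.6, 34.3 and 21.6 CPM in controls and 8.70, 12.3, 8.09 and 24.4 in the full combination (-1.14 ± 0.30, 0.0103), where 1 library reached into the control range. Among regulators of mitochondrial biogenesis 1 of 11 was called, Esrra with PARPi+ICB (0.28 ± 0.09, 0.0465), where 16.1% of all genes were called. Cycs, the electron carrier cytochrome c, was higher with PARPi+anti-VEGFA only (0.25 ± 0.07, 0.0149, beside the 17.8% of all genes called).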

How the data were processed

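Total RNA of bulk tumours was extracted with TRIzol and made into stranded libraries after removal of cytoplasmic RNA species, per the labels' protocols. Per the submitters' processing notes the authors used STAR, HTSeq and the genome build GRCm38, and versions, annotation and strand setting are not given in the sources used here. The deposited table of raw counts per gene was the basis of all main tests. The deposited log2 RPKM values of the authors served for 1 alternative and for levels. Their length followed genomic span, to within 1% in 99.7% of 12542 genes. No sample column was left unmapped.

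Counts were tested with edgeR 4.0.16 in R 4.3.3 (quasi-likelihood test, TMM scaling, all 6 groups in 1 fit, 14 residual degrees of freedom, Benjamini-Hochberg over the 18144 genes that filterByExpr kept, at a count minimum of 10 and total of 15). A change was called at an adjusted p under 0.05. Alternatives used DESeq2 1.42.0, limma 3.58.1, other scalings and filters, a replicate block, a quality covariate and fewer libraries. The interaction tests were added after the data were seen. The fit was tested on simulated data. Totals of 26.9 to 34.7 M counts per library limit only the low genes, and floors cover counting error. Each library title names a mouse, and p-values measure the spread between these libraries.

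The members and lists were chosen with earlier results of these data known. By rule the text names all mitochondrial genes, up to 8 called nuclear members with the smallest p in each direction of a contrast (the 4 with the smallest p where fewer than 4 were called), the most and least abundant members of each complex, the tissue-restricted Cox forms and up to 4 genes per related list. Ndufa12, Uqcrc1, Uqcrc2, Uqcrfs1, Atp5g2 and Atp5g3 were added after their values were seen. 1 called member is counted but not reported here by name.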

Additional observations from a re-analysis of the deposited data

Results flagged for a closer look

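In the groups of 4 libraries, 1 library stood apart from the other 3 in 7 of 58 tests of the gap divided by the range. For a gene chosen without regard to its values, chance gives about 1 in 20. Ndufa12, with 2 of the 7, was singled out after its values were seen, and the other genes flagged were called members. The 7 of 58 are therefore not read as more than chance gives. In the full combination, replicate 2 was high for Atp5g1 (56.1 CPM against 45.7 to 46.8, gap over range 0.888) and for Cox6b2 (2.68 CPM against 1.52 to 1.65, 0.885). That library also held pancreatic acinar RNA, and the part of this in the 2 values was not tested. Replicate 3 was low for Ndufc2 (37.4 CPM against 42.9 to 43.3, 0.939), and replicate 4 was low for Ndufv3 (58.1 CPM against 61.0 to 61.4, 0.872). Ndufa12 was high in replicate 4 of the full combination (28.8 CPM against 16.28 to 17.43, 0.908) and in replicate 3 of PARPi+anti-VEGFA (30.5 CPM against 17.3 to 18.0, 0.945), which are 2 of the 8 libraries with almost no Gm15920. Atp5d was low in replicate 1 of PARPi+anti-VEGFA (65.7 CPM against 69.7 to 70.3, 0.866), another library with acinar RNA.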

How the results depend on the processing

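No called result changed its sign under the alternatives run. Counts of called nuclear members moved by over 1.5 times as follows. With the Wald test of DESeq2, PARPi had 3 and ICB 4 calls, and ICB had 3 mitochondrial calls. For ICB, limma on the deposited log2 RPKM, no filter on low counts and the replicate block each gave 1, while a fit of only the groups compared and the quality RNAs as a covariate each gave 0. With no filter, PARPi+ICB had 5 and PARPi+anti-VEGFA 6. With only the groups compared, PARPi+anti-VEGFA had 6 and the full combination 8, with 1 mitochondrial call. With the quality covariate, PARPi+ICB had 2, PARPi+anti-VEGFA 0 and the full combination 8. Over all genes that fit called 0 with PARPi+anti-VEGFA and 0 with ICB. Without the 4 libraries with acinar RNA, PARPi+anti-VEGFA had 7. The replicate block gave 8 calls with PARPi+anti-VEGFA, 8 with PARPi+ICB and 10 in the full combination, and its other counts stayed within 1.5 times. Replicate numbers were only shared: the 46 same-numbered pairs had correlations of -0.22 to 0.17, and 6 of 20 samples correlated best with their own number. Leaving out 1 library gave 0 to 1 calls for ICB. For PARPi+ICB it gave 4 to 10 calls, for PARPi+anti-VEGFA 6 to 11 and for the full combination 7 to 17. The log2 change against control in the ratio of mitochondrial to nuclear counts was then 0.19 to 0.31 for ICB. For PARPi it was -0.02 to 0.11, for PARPi+ICB -0.03 to 0.14, for PARPi+anti-VEGFA 0.02 to 0.14 and for the full combination -0.04 to 0.11. The log2 change of the mitochondrial share alone was 0.15 to 0.26 for ICB and between -0.06 and 0.09 for the other groups. Of the 37 calls of a member in a contrast, 36 held in DESeq2, 29 in limma, 22 with no filter, 20 with only the groups compared and 9 with the quality covariate. The 37 include the calls of Cox6a2 with ICB, PARPi+ICB, PARPi+anti-VEGFA and in the full combination, which are no support for a change. Cox6a2 was not taken out of the other counts of this paragraph either. The cause of these moves was not tested. Depth limits only members of a few counts, such as Cox6a2.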

Other observations

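Among all tested genes, those whose log2 CPM followed Uqcrq most closely over the 20 libraries were Romo1, a small protein of the mitochondrial inner membrane (Pearson r = 0.95), Scand1 (0.95), Sf3b5 (0.93), Rpl27a (0.92) and Mrpl52 (0.92). These genes were picked out after the values were seen. The libraries share groups, depth and scaling, and the transcript of Romo1 has 569 bases, that of Mrpl52 418 and that of Sf3b5 3841. Uqcrq had a correlation of -0.67 with the quality list over the same 20 libraries, and of -0.14 once group means were removed.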
